A study of Mus musculus with 20 samples.

Results

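Acute phase proteins and the IL-6 and IL-1 signaling genes behind them were examined in mouse liver with and without stearoyl-CoA desaturase 1 (Scd1), the enzyme that makes monounsaturated fatty acids. The 32 genes were chosen as a list of known acute phase proteins, metallothioneins, cytokine receptors and signal factors. The list was written with earlier results of these data known. Of several probe sets of a gene the one with the highest mean log2 intensity over 20 arrays stands for it. The 32 were matched by symbol through the array's probe table, which gave 57 probe sets for them. They stand against 18193 genes named by a probe set of 1 gene. All 32 were measured, which means above the floor of 16 intensity units on at least 1 array.

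The acute phase response is the change in plasma protein synthesis by which the liver answers infection, injury or inflammation. Interleukin-6, acting through its receptor chains Il6ra and Il6st and the transcription factor Stat3, and interleukin-1, acting through Il1r1 and NF-kB, raise transcription in hepatocytes together with the C/EBP factors, while Socs3 shuts the Stat3 signal off. In the mouse the serum amyloid A proteins and serum amyloid P are the main responders, and C-reactive protein responds little.

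The series compared 4 groups of 5 individual livers, 1 array each: Scd1-/- mice on a very low fat (VLF) diet, TD03045 from Harlan Teklad, which the series text calls VLF-HC; Scd1-/- mice on chow; Scd1+/+ mice on the VLF diet; and Scd1+/+ mice on chow. Per the series design, the search was for changes particular to knockout livers on the VLF diet. The sources used here do not give how the allele was made, nor the age, sex, strain, feeding state and days on diet. Whole frozen liver was the source of the RNA, so fewer cells of a type and less RNA per cell cannot be told apart.

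Across the arrays, Scd1 itself read 27.2 to 58.0 normalized intensity units in the 10 Scd1-/- livers and 6515 to 20409 in the 10 Scd1+/+ livers. The ratio of the 3' to the 5' actin probe sets, a measure of RNA integrity, averaged 1.82 ± 0.114 in Scd1-/- VLF and 2.19 ± 0.198 in Scd1+/+ VLF livers (SD, n = 5 each, two-sided exact permutation p = 0.0159), and 2.25 ± 0.124 in Scd1-/- chow and 2.70 ± 0.238 in Scd1+/+ chow livers (p = 0.00794, the smallest this design allows). Between the diets p was 0.00794 in either genotype, so that the ratio moved with genotype and with diet, and its part in the results was not tested. With 5 arrays a group, their number limits the precision.

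Array 3 of the Scd1-/- chow group stood apart from the other 4 of its group. It gave the highest value of its group for 29 of the 32 genes, a value above all 19 other arrays for 23, and a value over 2-fold above the mean of the other 4 for 14. Of 14403 genes above the floor on all arrays, 94 lay as far above that mean. The other counts were not made over all genes. For comparisons that use this group, the counts of genes called, and the values that moved most, are therefore given with and without that array. Leaving it out also changes the spread that all groups share. Calls over all genes were not counted without it, so counts of the 32 without it have no such share beside them.

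**Figure D1:**
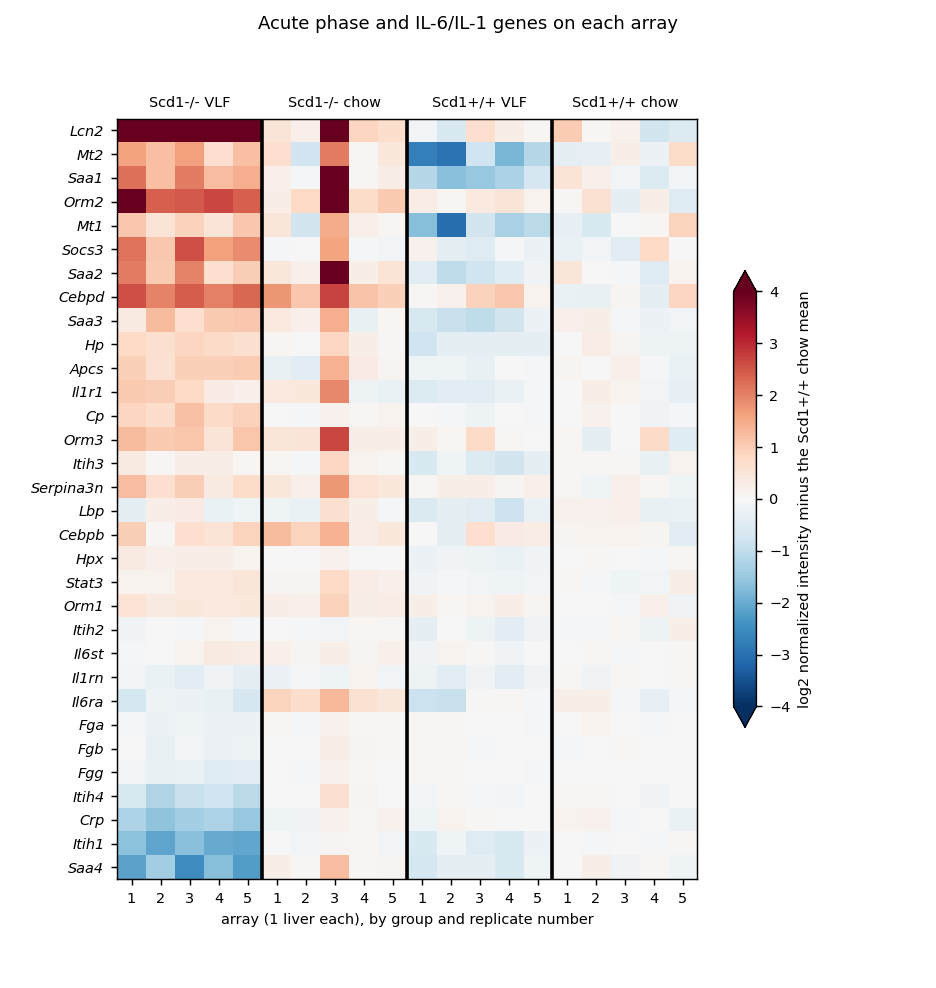
Each row is a gene and each column 1 array; colour is log2 normalized intensity minus the mean of the 5 Scd1+/+ chow arrays, and rows are ordered by the change between Scd1-/- and Scd1+/+ livers on the VLF diet. The 5 Scd1-/- VLF columns carry both strongly raised rows (Lcn2, Orm2, Saa1) and lowered rows (Saa4, Itih1, Crp), while Scd1-/- chow array 3 is raised in most rows without the lowered ones.

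Promoters of the genes on which the results turn are given first. RefSeq promoters (GRCm38.p6) matched 28 of the 32 genes by symbol, and Orm1, Hp, Lbp and Cebpd were not matched. The 250 bases before each start site were searched on both strands for the STAT element TTCNNNGAA, the C/EBP element TTNNGNAA, an NF-kB element (GGG and CC with 5 free bases between) and the metal response element TGCACNC or TGCGCNC. Of 32841 promoters in the table, 7.02% held the STAT element, 36.9% the C/EBP element, 45.8% the NF-kB element and 21.4% the metal response element. Of the 28 genes, 5 held the STAT element (Apcs, Fga, Fgb, Itih4 and Socs3), 20 the C/EBP element, 15 the NF-kB element and 4 the metal response element (Fgg, Mt1, Mt2 and Orm3), counting any promoter of a gene with several. A match describes these letters only and is no evidence of binding.

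The promoters of Saa1, Saa2 and Saa4 are shown because neighbouring genes of 1 family went opposite ways, and that of Lcn2 because it rose most; capitals mark C/EBP and NF-kB elements on either strand. The stretches are chr7:46742981-46743230 (minus strand), chr7:46751583-46751832 (plus strand), chr7:46732604-46732853 (minus strand) and chr2:32387740-32387989 (minus strand). Saa1 and Saa2 shared 238 bases of their 250, and 94.8% of the columns of their alignment were identical, against 49.5% for Saa1 and Saa4. The second C/EBP element of Saa1 abuts its NF-kB element, and Saa2 has no match at that place.
Saa1: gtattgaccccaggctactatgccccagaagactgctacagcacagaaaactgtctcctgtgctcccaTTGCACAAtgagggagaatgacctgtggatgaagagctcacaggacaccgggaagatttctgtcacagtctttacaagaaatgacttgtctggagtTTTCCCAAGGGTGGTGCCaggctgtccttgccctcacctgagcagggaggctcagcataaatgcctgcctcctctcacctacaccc
Saa2: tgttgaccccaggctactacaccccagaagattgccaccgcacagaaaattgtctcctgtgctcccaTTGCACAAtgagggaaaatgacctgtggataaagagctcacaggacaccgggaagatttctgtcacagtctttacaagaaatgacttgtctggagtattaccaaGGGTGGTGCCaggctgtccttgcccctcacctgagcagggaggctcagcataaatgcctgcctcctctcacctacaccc
Saa4: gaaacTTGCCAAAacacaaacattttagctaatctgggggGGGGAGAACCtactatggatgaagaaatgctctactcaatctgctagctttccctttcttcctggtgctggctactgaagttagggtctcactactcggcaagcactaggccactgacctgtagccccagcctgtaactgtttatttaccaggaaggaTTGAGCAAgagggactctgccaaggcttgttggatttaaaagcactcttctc
Lcn2: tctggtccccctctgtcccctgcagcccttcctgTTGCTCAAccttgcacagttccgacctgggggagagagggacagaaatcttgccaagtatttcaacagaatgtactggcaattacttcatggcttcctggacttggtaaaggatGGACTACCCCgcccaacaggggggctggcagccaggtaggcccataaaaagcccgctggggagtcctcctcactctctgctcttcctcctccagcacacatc

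Socs3 is shown for its STAT element, and Mt1 and Mt2, which lie beside each other on chromosome 8, for their metal response elements, all in capitals. The stretches are chr11:117969367-117969616 (minus strand), chr8:94178839-94179088 (plus strand) and chr8:94172368-94172617 (plus strand). Mt1 held 1 metal response element and Mt2 held 3; the share of all promoters with 2 or more was 5.18%.
Socs3: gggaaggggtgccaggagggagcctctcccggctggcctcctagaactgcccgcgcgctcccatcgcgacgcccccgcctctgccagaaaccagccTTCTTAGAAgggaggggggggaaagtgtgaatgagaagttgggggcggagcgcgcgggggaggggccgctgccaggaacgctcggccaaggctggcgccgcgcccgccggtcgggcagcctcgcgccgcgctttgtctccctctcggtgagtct
Mt1: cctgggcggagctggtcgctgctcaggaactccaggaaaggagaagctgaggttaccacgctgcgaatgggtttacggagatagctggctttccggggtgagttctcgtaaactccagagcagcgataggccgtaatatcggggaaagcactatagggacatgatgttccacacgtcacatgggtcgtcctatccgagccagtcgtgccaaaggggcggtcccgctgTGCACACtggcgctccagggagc
Mt2: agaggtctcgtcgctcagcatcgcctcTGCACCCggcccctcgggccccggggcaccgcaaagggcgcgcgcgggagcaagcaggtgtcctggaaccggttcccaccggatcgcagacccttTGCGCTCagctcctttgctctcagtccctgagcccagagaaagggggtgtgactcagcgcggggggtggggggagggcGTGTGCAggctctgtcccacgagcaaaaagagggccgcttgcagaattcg

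Scd1-/- livers on the VLF diet showed a mixed acute phase pattern against Scd1+/+ livers on the same diet. On the brightest probe sets, Lcn2, Saa1, Orm2, Mt1, Mt2 and Socs3 rose more than 4-fold. Saa2, Saa3, Hp, Apcs, Cebpd and Il1r1 rose 2-fold or more, and Saa4, Itih1 and Crp fell more than 2-fold. Some sizes depended on the probe set: others gave 3.98-fold and 1.56-fold for Socs3 and 1.71-fold for Mt1. Second probe sets gave 1.08-fold higher for Cebpd and 1.61-fold lower for Saa4, neither called. Of the 32 genes, 17 were higher, 7 lower and 8 not called (limma over all probe sets, adjusted p under 0.05), where 42.1% of the 18193 genes were called, 19.2% higher and 23.0% lower. The median log2 change of the 32 was 0.54, beside -0.06 for all 16199 measured genes. At 2-fold or more, 12 of the 32 were higher and 3 lower, against 4.26% and 2.97% of all genes. Because the list was written with earlier results of these data known, such differences from all genes are no independent evidence. The 5 Scd1-/- and 5 Scd1+/+ values did not overlap for 23 of the 32, 18 above and 5 below, against 30.1% of all genes, 14.6% above and 15.5% below. Without Scd1-/- chow array 3, which enters here only through the spread that all groups share, 20 were higher and 7 lower. No count over all genes was made for that fit. With arrays centred on the hybridization controls in place of quantile normalization, 23 were higher and 4 lower, while over all genes 5012 were higher and 981 lower, in place of 3490 and 4176, and the median moved to 0.17.

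**Figure D2:**
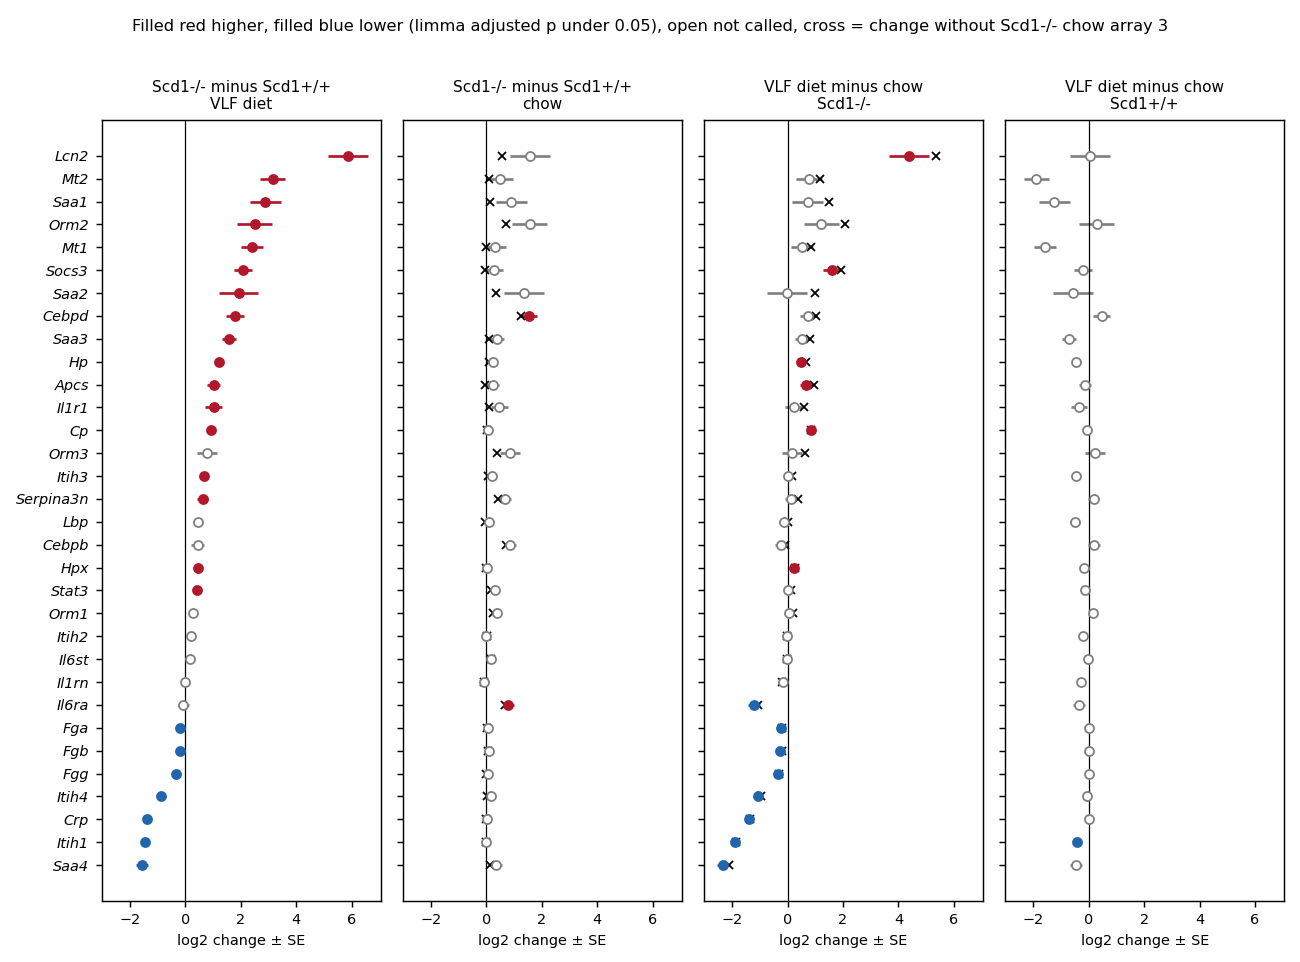
Log2 change with its standard error for each of the 32 genes in 4 comparisons of 5 against 5 livers; filled red points were called higher, filled blue lower and open grey not called, and crosses, in the panels that use the Scd1-/- chow group, give the change without its array 3. In the leftmost panel 17 points are red and 7 blue, from 5.88 for Lcn2 to -1.55 for Saa4, and in the rightmost panel only Itih1 is filled.

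Serum amyloid A proteins, small apolipoproteins of high density lipoprotein, split by isoform. Saa1, an inducible liver isoform, read 3197, 1591, 2846, 1651 and 1916 normalized intensity units in Scd1-/- VLF livers, against 316, 219, 243, 289 and 437 in Scd1+/+ VLF livers. On chow it read 806, 667, 11029, 740.0 and 836 in Scd1-/- livers and 1018, 794, 641, 479 and 649.6 in Scd1+/+ livers. Every Scd1-/- VLF value lay above every Scd1+/+ value of either diet, and only chow array 3 lay higher; Saa1 was 7.36-fold higher on the VLF diet (log2 2.88 ± 0.56, limma adjusted p = 0.000486). Its near-identical neighbour Saa2 read 744, 372, 713, 288 and 357 in Scd1-/- VLF and 133, 89.8, 104, 129.6 and 162 in Scd1+/+ VLF livers. Chow values of Saa2 were 248, 206, 7722, 211 and 260.5 in Scd1-/- and 251, 179, 169.7, 125 and 197 in Scd1+/+ livers. The Saa2 groups on the VLF diet did not overlap, but its call was weak (log2 1.92 ± 0.72, limma adjusted p = 0.0471): it held in 13 of 30 other settings, and without chow array 3 the value was 1.92 (adjusted p = 7.91e-06). The Saa2 probe set is of a type that can read several transcripts, so that Saa1 and Saa2 signal cannot be told apart in it.

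Saa3, an isoform made mostly outside hepatocytes, by macrophages and fat cells among others, read 319.6, 600.5, 400.1, 516 and 528 in Scd1-/- VLF livers, against 162, 134, 123, 151 and 214 in Scd1+/+ VLF livers. Its chow values were 325, 291, 679, 206 and 264 in Scd1-/- and 286, 294, 238, 213 and 231 in Scd1+/+ livers. The VLF groups did not overlap, and Saa3 was 3-fold higher in the knockout (log2 1.59 ± 0.25, limma adjusted p = 5.26e-05). Saa4, the constitutive isoform, went the other way, with 551, 919.6, 424, 741 and 512 in Scd1-/- VLF and 1472, 1869, 1871, 1569.7 and 2139.9 in Scd1+/+ VLF livers. On chow it read 2814, 2522, 5659, 2558 and 2613 in Scd1-/- and 2418, 2820.0, 2202, 2554 and 2123 in Scd1+/+ livers. All 5 Scd1-/- VLF livers lay below all 15 others, and Saa4 was 2.92-fold lower on the VLF diet (log2 -1.55 ± 0.22, limma adjusted p = 1.48e-05). A second, dimmer Saa4 probe set gave -0.69 ± 0.39 and was not called (adjusted p = 0.202).

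**Figure D3:**
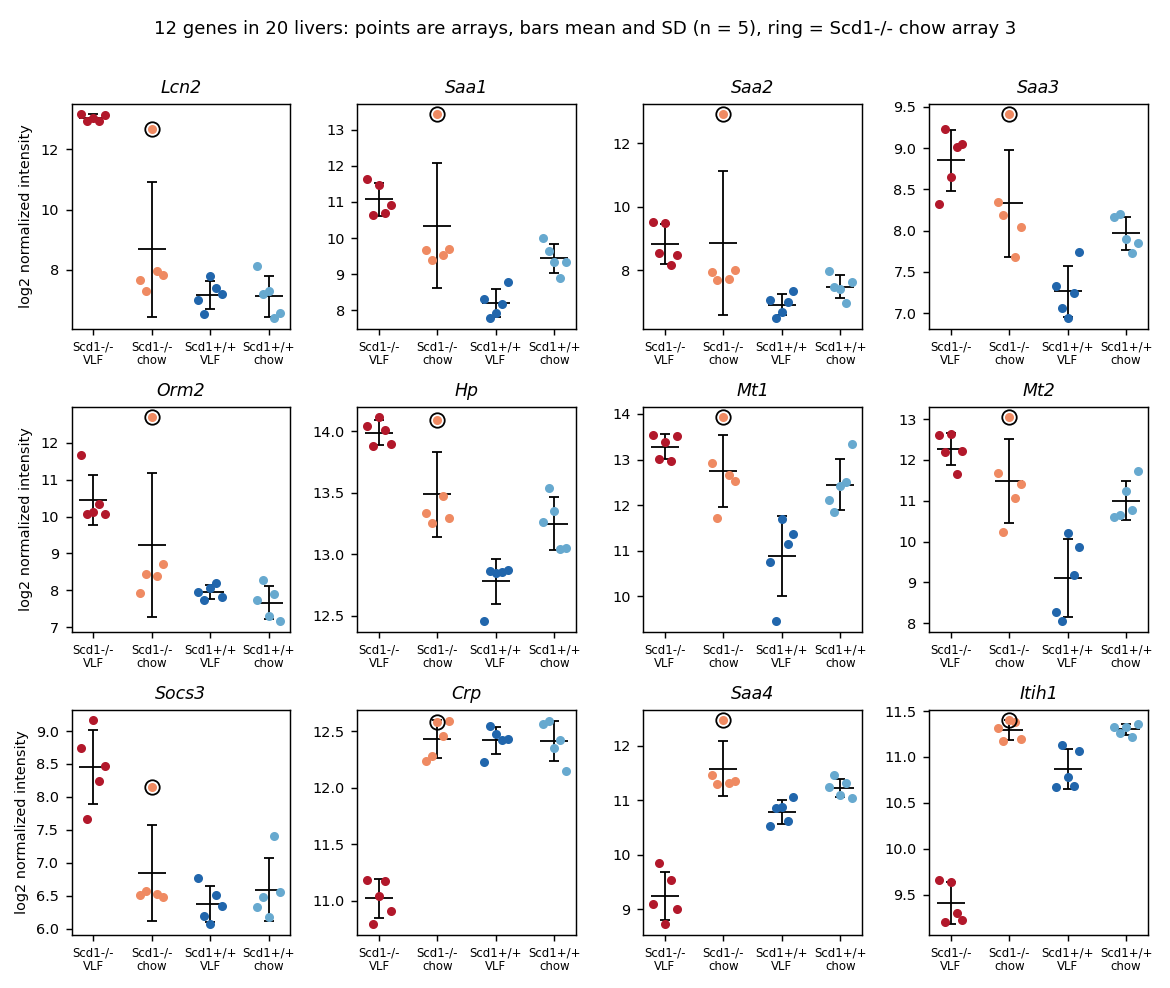
Each panel plots log2 normalized intensity of 1 gene for every array by group, with the mean and SD of 5 livers as bars and a ring around Scd1-/- chow array 3; vertical scales differ between panels. The ring lies far above its group for Lcn2, Saa1, Saa2 and Orm2, and close to its group for Crp and Itih1, which are low in all 5 Scd1-/- VLF livers.

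Lcn2, lipocalin 2, which binds bacterial siderophores and so withholds iron, read 9189, 7964, 8526, 7921 and 9139.9 in Scd1-/- VLF livers, against 128, 91.7, 221, 167 and 145 in Scd1+/+ VLF livers. On chow the values were 201, 159, 6575, 249.7 and 228 in Scd1-/- and 282, 146, 158, 83.7 and 95.6 in Scd1+/+ livers. The 5 Scd1-/- VLF livers were tightly grouped and the highest of all 20, and the change was 59.1-fold (log2 5.88 ± 0.72, limma adjusted p = 2.85e-06). Without chow array 3 the standard error, which all groups share, shrank and the adjusted p was 2.69e-11. Orosomucoids, also called alpha-1-acid glycoproteins, carry drugs and steroids in plasma. Orm2 read 3222, 1074, 1111, 1297 and 1068 in Scd1-/- VLF and 248, 213, 267, 292 and 224 in Scd1+/+ VLF livers. Its chow values were 243, 351, 6593, 335 and 418 in Scd1-/- and 212, 309, 157, 237 and 143 in Scd1+/+ livers. Orm2 was 5.65-fold higher in Scd1-/- livers on that diet (log2 2.50 ± 0.63, limma adjusted p = 0.00466), and replicate 1 of the Scd1-/- VLF group lay well above the other 4. Orm1 averaged 8497 ± 541 in Scd1-/- VLF and 7017 ± 379 in Scd1+/+ VLF livers (SD, n = 5 each), groups that did not overlap but missed the threshold (log2 0.28 ± 0.11, limma adjusted p = 0.0523). Orm3 averaged 210.5 ± 38.3 and 123 ± 29.2 in the same order (log2 0.78 ± 0.36, limma adjusted p = 0.115). Without chow array 3, Orm1 at 0.28 (adjusted p = 0.00101) and Orm3 at 0.78 (adjusted p = 0.00598) were both called.

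Of the pentraxins, pattern-recognition proteins that bind microbial and dead-cell surfaces, 1 rose and 1 fell. Apcs, serum amyloid P, read 4862, 3883, 4831, 4841 and 5141 in Scd1-/- VLF livers, against 2233, 2239.6, 2049, 2519 and 2465 in Scd1+/+ VLF livers. On chow it read 2075, 1899.9, 6632, 3170.3 and 2705 in Scd1-/- and 2732, 2551, 2928, 2373 and 2108 in Scd1+/+ livers. The VLF groups did not overlap, and the change was 2.04-fold (log2 1.03 ± 0.23, limma adjusted p = 0.00162). Crp, C-reactive protein, read 2328, 1769.8, 2108, 2309 and 1922 in Scd1-/- VLF livers and 4801, 5974, 5686, 5488 and 5527 in Scd1+/+ VLF livers. Its chow values were 4831, 4964, 6139.9, 5629 and 6181 in Scd1-/- and 6053, 6181, 5213, 5488 and 4528 in Scd1+/+ livers. The 5 Scd1-/- VLF livers lay below all 15 others, and Crp was 2.64-fold lower (log2 -1.40 ± 0.10, limma adjusted p = 2.76e-09).

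Metal and heme carriers were higher. Hp, haptoglobin, which captures free hemoglobin, read 16898, 15073, 17731, 16549 and 15265 in Scd1-/- VLF livers, against 5612, 7462, 7358, 7423 and 7488 in Scd1+/+ VLF livers. On chow Hp read 10314, 9765, 17468, 11361 and 10046 in Scd1-/- and 9839, 11937, 10456, 8429.9 and 8485 in Scd1+/+ livers. The VLF groups did not overlap (log2 1.21 ± 0.14, limma adjusted p = 1.26e-06), and the Scd1+/+ VLF values also lay below those of Scd1+/+ chow livers without a call. Cp, ceruloplasmin, the copper-carrying ferroxidase, averaged 15099 ± 2003 in Scd1-/- VLF and 7804 ± 441 in Scd1+/+ VLF livers (SD, n = 5 each; log2 0.94 ± 0.08, limma adjusted p = 2.2e-08), and its 7 other probe sets were all called higher, by 0.23 to 1.55 on the log2 scale. Hpx, hemopexin, the plasma heme binder, averaged 17174 ± 1058 in Scd1-/- VLF and 12624 ± 483 in Scd1+/+ VLF livers (log2 0.44 ± 0.05, limma adjusted p = 6e-07). Both pairs of groups were without overlap.

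Fibrinogen, the clotting protein built from 3 chains, differed by small amounts. The sign depended on scaling for Fga and Fgb, and for Fgg it did not. Fgg, the gamma chain, averaged 10959.9 ± 1210.1 in Scd1-/- VLF and 13607 ± 392 in Scd1+/+ VLF livers without overlap (log2 -0.32 ± 0.06, limma adjusted p = 0.000297). Fga, the alpha chain, averaged 10714 ± 641 and 12151 ± 300.1 in the same order (log2 -0.18 ± 0.05, limma adjusted p = 0.0049), and Fgb, the beta chain, 12217 ± 1093 and 13860.3 ± 626 (log2 -0.19 ± 0.06, limma adjusted p = 0.0208). Centred on the hybridization controls, Fga at 0.06 and Fgb at 0.02 turned sign, Fgg gave -0.11, and none of the chains was called.

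Inter-alpha-trypsin inhibitor heavy chains, which are joined to hyaluronan in the extracellular matrix (Itih1 to Itih3) or act as a separate acute phase protein (Itih4), did not move as a block. Itih1 read 812, 587, 798, 629 and 599 in Scd1-/- VLF livers, against 1638, 2242, 1766, 1641 and 2143 in Scd1+/+ VLF livers. Its chow values were 2554, 2319, 2700.4, 2674 and 2338 in Scd1-/- and 2575, 2454, 2560.4, 2388 and 2632 in Scd1+/+ livers. The 5 Scd1-/- VLF livers lay below the other 15, and Itih1 was 2.76-fold lower (log2 -1.46 ± 0.10, limma adjusted p = 2.65e-09). Itih4 averaged 5184 ± 795 in Scd1-/- VLF and 9412 ± 400.1 in Scd1+/+ VLF livers (SD, n = 5 each) and was also lower (log2 -0.87 ± 0.11, limma adjusted p = 4.99e-06). Itih3 was higher, with 6464 ± 607 in Scd1-/- VLF and 4075 ± 637 in Scd1+/+ VLF livers (log2 0.67 ± 0.14, limma adjusted p = 0.00106). Itih2 averaged 4478 ± 333 and 3924 ± 496 in the same order and was not called (log2 0.20 ± 0.08, limma adjusted p = 0.0847).

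Serpina3n, an inhibitor of serine proteases, averaged 2301 ± 523 in Scd1-/- VLF and 1465 ± 88.6 in Scd1+/+ VLF livers (SD, n = 5 each) and was higher (log2 0.62 ± 0.21, limma adjusted p = 0.029). Lbp, which hands bacterial lipopolysaccharide to Cd14, averaged 1498 ± 328 in Scd1-/- VLF and 1083 ± 157 in Scd1+/+ VLF livers. The Lbp groups overlapped and the change was not called (log2 0.45 ± 0.18, limma adjusted p = 0.0569); without chow array 3 it was, at 0.45 (adjusted p = 0.028).

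Metallothioneins, cysteine-rich binders of zinc and copper, differed with genotype on the VLF diet, and the lowest values lay in Scd1+/+ VLF livers. Mt1 read 11937, 8232, 10642, 8003 and 11713 in Scd1-/- VLF livers, against 1724, 699.9, 3339.6, 2282 and 2641 in Scd1+/+ VLF livers. On chow the Mt1 values were 7754, 3364, 15564, 6461 and 5878 in Scd1-/- and 4463, 3700.4, 5488, 5867 and 10378 in Scd1+/+ livers. Mt1 was 5.26-fold higher in Scd1-/- livers on that diet (log2 2.40 ± 0.40, limma adjusted p = 0.000104); on its second probe set the change was 0.77 ± 0.26 (adjusted p = 0.0304), with overlap. Mt2 read 6197, 4699.9, 6391, 3228 and 4736 in Scd1-/- VLF and 308, 264, 1174, 580.1 and 928 in Scd1+/+ VLF livers. Its chow values were 3280.0, 1199, 8429.9, 2159.8 and 2738 in Scd1-/- and 1549.9, 1615, 2418, 1751 and 3369 in Scd1+/+ livers. Mt2 was 8.89-fold higher (log2 3.15 ± 0.46, limma adjusted p = 2.18e-05), without overlap between the VLF groups. Between the diets in Scd1+/+ livers, Mt1 gave -1.57 (adjusted p = 0.0705) and Mt2 -1.89 (adjusted p = 0.0535): the values on the VLF diet all lay below those on chow, and neither change was called. Both were called without Scd1-/- chow array 3, Mt1 with -1.57 (adjusted p = 0.0378) and Mt2 with -1.89 (adjusted p = 0.0212). In Scd1-/- livers, VLF diet against chow, Mt1 gave 0.53 (adjusted p = 0.427) and Mt2 0.77 (adjusted p = 0.269), and without array 3 0.83 (adjusted p = 0.124) and 1.16 (adjusted p = 0.0419).

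Among the receptors, the IL-1 receptor rose and the IL-6 receptor chains were not called. Il1r1, the signaling IL-1 receptor, averaged 596 ± 155 in Scd1-/- VLF and 286 ± 37.4 in Scd1+/+ VLF livers (SD, n = 5 each), without overlap (log2 1.02 ± 0.30, limma adjusted p = 0.0126). Il1rn, the antagonist that occupies this receptor, averaged 100.1 ± 10.0 and 99.8 ± 11.1 in the same order on its brightest probe set (log2 0.00 ± 0.08, limma adjusted p = 1), whereas its other probe sets were called higher at 1.03 and 0.52, so that its call depends on the probe set. Il6ra, the IL-6 binding chain, read 127, 180.2, 178, 169 and 129 in Scd1-/- VLF livers and 114, 111, 213, 216 and 196 in Scd1+/+ VLF livers. On chow it read 383, 336, 521, 317 and 283 in Scd1-/- and 246, 242, 203, 164 and 196 in Scd1+/+ livers. The VLF groups of Il6ra overlapped fully (log2 -0.07 ± 0.21, limma adjusted p = 1), and the highest 5 of all 20 values were those of the Scd1-/- chow livers. A second Il6ra probe set was called lower at -0.28 (adjusted p = 0.0365). Il6st, the shared signaling chain gp130, averaged 527 ± 64.5 in Scd1-/- VLF and 467 ± 38.2 in Scd1+/+ VLF livers (log2 0.17 ± 0.07, limma adjusted p = 0.0751), and its other probe sets gave 0.00 to 0.09 without a call.

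Socs3, the feedback inhibitor that Stat3 induces, read 429.8, 202, 573, 303 and 353 in Scd1-/- VLF livers, against 109, 73.3, 66.9, 91.3 and 81.1 in Scd1+/+ VLF livers. On chow the Socs3 values were 91.2, 94.9, 285, 92.0 and 89.2 in Scd1-/- and 80.2, 89.2, 72.4, 169 and 94.5 in Scd1+/+ livers. Each Scd1-/- VLF value lay above each Scd1+/+ value, and the change was 4.23-fold (log2 2.08 ± 0.32, limma adjusted p = 4.48e-05); the other probe sets were called higher too, at 1.99 and 0.64. Stat3 averaged 1156 ± 127 in Scd1-/- VLF and 854 ± 25.8 in Scd1+/+ VLF livers and was higher on its brightest probe set (log2 0.43 ± 0.11, limma adjusted p = 0.00629), while its other probe sets, at 0.23, 0.12 and -0.23, were not called. Cebpd, a C/EBP factor that is itself induced in the acute phase, read 277, 185, 246, 189 and 227 in Scd1-/- VLF and 47.6, 52.4, 87.4, 98.5 and 50.5 in Scd1+/+ VLF livers. Its chow values were 159, 96.9, 300.2, 102 and 89.1 in Scd1-/- and 38.5, 37.7, 49.8, 35.4 and 83.2 in Scd1+/+ livers. Cebpd was 3.46-fold higher on the VLF diet (log2 1.79 ± 0.31, limma adjusted p = 0.000166), and every Scd1-/- liver on either diet lay above the Scd1+/+ chow livers; a second probe set gave 0.11 (adjusted p = 0.574). Cebpb, its partner, averaged 1569.5 ± 371 in Scd1-/- VLF and 1160.3 ± 307 in Scd1+/+ VLF livers with overlap (log2 0.44 ± 0.23, limma adjusted p = 0.165).

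Whether diet acted differently in the 2 genotypes was tested by the interaction, the diet change in Scd1-/- minus that in Scd1+/+ livers. It was called for 16 of the 32 genes, 8 higher and 8 lower, where 24.2% of all genes were called, 12.1% each way, and the median was 0.24 beside 0.00 for all genes. Lcn2 (4.32), Mt2 (2.66), Mt1 (2.10), Socs3 (1.82), Saa3 (1.22), Hp (0.97), Cp (0.89) and Hpx (0.42) were higher. Saa4 (-1.89), Itih1 (-1.46), Crp (-1.42), Itih4 (-1.02), Il6ra (-0.86) and Fgg (-0.36) were lower, as were Fgb (-0.28) and Fga (-0.23), which turned sign to 0.04 and 0.15 when centred on the hybridization controls. For Saa1 the interaction was 1.98 ± 0.79 and missed the threshold (adjusted p = 0.103); without chow array 3 it was 2.75 (adjusted p = 8.67e-06). Without that array 14 genes were higher and 7 lower, with no count over all genes made for that fit. Apcs, Il1r1, Itih3, Orm2, Saa1 and Saa2 joined the higher ones and Il6ra, at -0.73 (limma adjusted p = 0.0816), was lost. Lcn2 gave 5.32 (adjusted p = 3.99e-08) without it, Orm2 1.80 (adjusted p = 0.00292) and Saa2 1.56 (adjusted p = 0.00433). Other probe sets differed in call from the brightest: Mt1's second gave 0.17 (adjusted p = 1), Il6ra's second -0.23 (adjusted p = 0.356), Saa4's second -1.51 (adjusted p = 0.0696) and 2 of Cp's 0.31 (adjusted p = 0.53) and 0.02 (adjusted p = 1), none called, whereas 1 of Il6st gave -0.58 (adjusted p = 0.00429) and 1 of Il1rn 0.49 (adjusted p = 0.00488). Centred on the hybridization controls, 11 were higher and 4 lower, while over all genes 4033 were higher and 665 lower, in place of 2206 and 2197, and the median moved to 0.37.

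Within Scd1-/- livers, the VLF diet against chow gave 6 higher and 8 lower of 32 (34.8% of all genes called, 17.1% higher and 17.7% lower), with a median of 0.03 beside -0.03 for all genes; this comparison shares the 5 Scd1-/- VLF arrays with the genotype comparison above. Lcn2 (4.37), Socs3 (1.61), Cp (0.83), Apcs (0.67), Hp (0.50) and Hpx (0.23) were higher, and Saa4 (-2.34), Itih1 (-1.89), Crp (-1.41), Il6ra (-1.22), Itih4 (-1.07) and Fgg (-0.35) were lower. Fgb (-0.26) and Fga (-0.23) were called lower and turned sign to 0.07 and 0.11 when centred on the hybridization controls. That centring gave 16 higher and 5 lower of the 32, while over all genes it gave 7868 higher and 920 lower, in place of 3108 and 3215, and moved the median to 0.34. Values did not overlap between the diets for 8 of the 32, 2 above and 6 below, against 25.3% of all genes, 12.3% above and 13.0% below. Without chow array 3, 16 genes were higher and 8 lower, and the median was 0.22. Neither a count nor a median over all genes was made for that fit, so the rise has no background beside it. Lcn2 then gave 5.37 (adjusted p = 1.96e-10), beside 4.37 (adjusted p = 9.38e-05) with it. Saa1 gave 1.50 (adjusted p = 9.14e-05), beside 0.73 (adjusted p = 0.444) with it; Orm2 gave 2.08 (adjusted p = 1.96e-05), beside 1.22 (adjusted p = 0.194); and Saa2 gave 0.99 (adjusted p = 0.00774), beside -0.02 (adjusted p = 1). Mt2, Cebpd, Saa3, Orm3, Il1r1, Serpina3n and Orm1 were the other genes called higher only without it.

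On chow, Scd1-/- against Scd1+/+ livers gave few calls: 2 of the 32 were called higher and none lower (2.95% of all genes called, 1.23% higher and 1.71% lower), with a median of 0.28 beside -0.02 for all genes. Cebpd (log2 1.52 ± 0.31, limma adjusted p = 0.0291) and Il6ra (log2 0.79 ± 0.21, limma adjusted p = 0.0486) were higher, both without overlap, while at an unadjusted p under 0.05 there were 10 higher and 0 lower. The second probe sets of Cebpd, at 0.14 (adjusted p = 0.587), and Il6ra, at -0.05 (adjusted p = 1), were not called, whereas the second of Cebpb, at 1.13 (adjusted p = 0.03), 1 of Il6st, at 0.60 (adjusted p = 0.0116), and 1 of Cp, at 0.73 (adjusted p = 0.0382), were called higher. Groups did not overlap for 6 of the 32, all above, against 6.14% of all genes, 2.46% above and 3.68% below. The further 4 were Cebpb (0.85, adjusted p = 0.0538), Serpina3n (0.68, adjusted p = 0.0744), Orm1 (0.39, adjusted p = 0.0547) and Il6st (0.17, adjusted p = 0.157). Without chow array 3 limma called none of the 32, with 7 at an unadjusted p under 0.05, and Cebpd gave 1.23 (adjusted p = 0.0707) and Il6ra 0.66 (adjusted p = 0.143). The median of the 32 was then 0.09. Under median scaling without quantile normalization 7 of the 32 were called higher, while over all genes 1261 were higher and 234 lower, in place of 224 and 312. Without Scd1-/- chow replicate 2 there were 4, and without Scd1-/- chow replicate 4 or Scd1+/+ chow replicate 1 or 4 there were 0.

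In Scd1+/+ livers the VLF diet against chow gave 0 higher and 1 lower of the 32 (limma; 1.57% of all genes called, 0.786% higher and 0.781% lower), with 0 higher and 11 lower at an unadjusted p under 0.05, and a median of -0.16 beside -0.02. Itih1 was the gene called lower (log2 -0.43 ± 0.10, limma adjusted p = 0.0496), without overlap; the call held in 11 of 31 other settings, with adjusted p between 0.0176 and 0.418. Groups did not overlap for 6 of the 32, all below, against 4.27% of all genes, 1.85% above and 2.42% below. Beside Itih1, Mt1 and Mt2 these were Hp (-0.47, adjusted p = 0.121), Hpx (-0.19, adjusted p = 0.0599) and Saa1 (-1.25, adjusted p = 0.378). Without Scd1-/- chow array 3, which enters here only through the shared spread, 7 were called lower: these 6 and Itih3, at -0.47 (limma adjusted p = 0.0247). No count over all genes was made for that fit.

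Array 3 of the Scd1-/- chow group had most of the acute phase genes at their highest level in the series, and the values are a description of 1 liver with no test. Saa2 read 7722 there, against 206 to 260.5 on the other 4 arrays of its group, a 33.6-fold gap. Lcn2 stood 31.9-fold, Orm2 19.9-fold, Saa1 14.5-fold and Orm3 4.87-fold above the mean of those 4. Mt2 (3.84-fold), Il1r1 (3.55-fold), Socs3 (3.1-fold), Mt1 (2.77-fold), Cebpd (2.76-fold), Apcs (2.75-fold), Saa3 (2.54-fold), Serpina3n (2.46-fold) and Saa4 (2.16-fold) made up the 14 genes past 2-fold. The array differed from the 5 Scd1-/- VLF livers in which genes were high. Saa4 read 5659 on it, against 424 to 919.6 in those livers; Itih4 read 15073, against 4229 to 6229; and Crp read 6139.9, against 1769.8 to 2328. All 7 genes called lower between genotypes on the VLF diet read above the 5 Scd1-/- VLF livers on this array. Cp, at 9081 against 13127 to 18326, was near the chow level instead. Of the 32 genes, the array read above all 5 Scd1-/- VLF livers for 24, within their range for 6 and below it for 2.

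Outside the 32, genes that stood out in Scd1-/- VLF livers were raised on this array in some cases, lowered in some and near chow levels in others. Cd14, the lipopolysaccharide co-receptor, read 168, against 1108 to 5242 in Scd1-/- VLF livers and 92.9 to 113 on the other 4 chow arrays. Atf3, a stress-induced transcription factor, read 18.8, against 197 to 406 and 20.5 to 23.8 in the same order. Lifr, the leukemia inhibitory factor receptor, read 1839, against 178 to 270.1 and 1989 to 3112. Lrg1, leucine-rich alpha-2-glycoprotein, was raised on it, at 10521, against 6632 to 8020.0 in Scd1-/- VLF livers and 3187 to 4473 on the other 4. Among genes lower in Scd1-/- VLF livers, Hamp2 and Cebpa were lowered on it too. Hamp2 read 1691.5, against 1707 to 3935 in Scd1-/- VLF livers and 8455 to 12156 on the other 4. Cebpa read 1444, against 512 to 727 and 2288 to 2666.5 in the same order. C9, also lower in those livers, was not lowered on array 3, at 5378 against 835 to 1373 and 3737 to 4155. The neutrophil gene S100a8 read 581 on it, against 65.0 to 149 on the other 4. Of 12 neutrophil markers the array read above the other 4 for 7, S100a8 among them, within their range for 1 and below it for 4 (Mmp8, Elane, Mpo and Cxcr2), and of 12 macrophage and Kupffer cell markers above them for 10 and within their range for 2; the part of these cells in its values was not tested. Of 14403 genes above the floor on all 20 arrays, 136 on array 3 lay 2-fold or more from the other 4 of its group. Of these, 94 lay above and 42 below. The count was the most of any of the 20 arrays, and the limma array weight of array 3, 0.319, was the lowest.

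**Figure D4:**
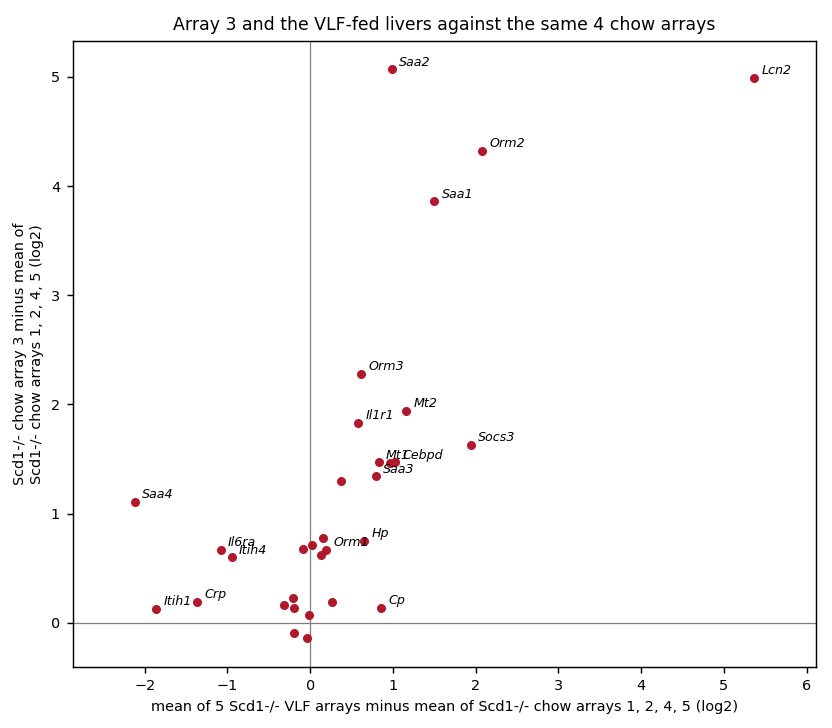
Each point is 1 of the 32 genes, plotted by the log2 difference of the mean of 5 Scd1-/- VLF arrays (horizontal) and of Scd1-/- chow array 3 (vertical) from the mean of the same 4 Scd1-/- chow arrays; both axes share those 4 arrays, so no correlation is given. Lcn2 lies near 5 on both, Saa2 near 5 on the vertical and 0.99 on the horizontal, and Saa4, Itih1, Crp and Itih4 lie left of 0 without lying below it.

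Spread between livers of a group was summarised by the SD of log2 values. The median SD of log2 values over the 32 was 0.226 in Scd1-/- VLF, 0.364 in Scd1-/- chow, 0.183 in Scd1+/+ VLF and 0.182 in Scd1+/+ chow livers, beside 0.148, 0.141, 0.129 and 0.138 over 14403 genes. In those 4 groups, 11, 22, 11 and 11 of the 32 lay above the 90th percentile of all genes' SDs. Without array 3, which was the highest of its group for 29 of the 32, the Scd1-/- chow median was 0.143 over the 32 and 0.109 over all genes, with 10 of the 32 above that percentile (an alternative chosen after seeing the data). Within the Scd1-/- VLF group, replicate 1 had the highest value for 20 of the 32.

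Other genes of the same pathways, from 5 lists that were also written with earlier results of these data known, were set beside the 32. Between genotypes on the VLF diet, 19.2% of all genes were called higher and 23.0% lower. On chow 2.95% of all genes were called, and between the diets in Scd1+/+ livers 1.57%. IL-1, TNF and toll-like receptor signaling had 17 higher, 4 lower and 8 not called of 29 measured in Scd1-/- against Scd1+/+ VLF livers, with a median of 0.39. Cd14 averaged 3864 ± 1700.1 in Scd1-/- VLF and 103 ± 7.08 in Scd1+/+ VLF livers (SD, n = 5 each), a log2 change of 5.05 ± 0.30 (adjusted p = 3.98e-10). Irak3, an inhibitor of the IL-1 and toll-like receptor cascade, gave 1.49 ± 0.21 (adjusted p = 1.59e-05), Il33, an IL-1 family cytokine, 1.02 ± 0.14 (adjusted p = 1.24e-05), and Tnfaip3, which restrains NF-kB, 0.95 ± 0.11 (adjusted p = 1.72e-06). In Scd1+/+ VLF livers Irak3, at 16 to 17.9, and Il33, at 16 to 21.6, lay at or near the floor of 16. They read 30.4 to 70.8 and 26 to 48.8 in Scd1-/- VLF livers, so the size of both changes depends on the floor. Lower were Il1rap, the co-receptor that Il1r1 needs, with 207 ± 49.6 in Scd1-/- VLF and 1241 ± 109.5 in Scd1+/+ VLF livers (-2.61 ± 0.13, adjusted p = 2.27e-11), the inhibitory receptor Sigirr (-0.72 ± 0.08, adjusted p = 5.55e-07), the cytokine Il18 (-0.59 ± 0.12, adjusted p = 0.000828) and the kinase Map3k7 (-0.40 ± 0.08, adjusted p = 0.000543). Of the ligands, Il1a (0.11 ± 0.08, adjusted p = 0.342), Il1b (0.23 ± 0.20, adjusted p = 0.44) and Tnf (-0.15 ± 0.07, adjusted p = 0.13) were not called. On chow and between the diets in Scd1+/+ livers, limma called 0 of the 29, with 5 and 6 at an unadjusted p under 0.05.

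The IL-6 family list had 6 higher, 7 lower and 8 not called of 21 measured, with a median of -0.07. Over all genes, 19.2% were called higher and 23.0% lower in this comparison. Osmr, the oncostatin M receptor (1.23 ± 0.23, adjusted p = 0.00031), Junb, an immediate early factor (1.11 ± 0.20, adjusted p = 0.000274), and the IL-22 receptor chains Il22ra1 (0.89 ± 0.17, adjusted p = 0.000332) and Il10rb (0.73 ± 0.09, adjusted p = 2.96e-06) were higher. Il22ra1 lay at or near the floor of 16 in Scd1+/+ VLF livers, at 16 to 17.6, against 24.9 to 47.7 in Scd1-/- VLF livers. Lifr averaged 206 ± 37.4 in Scd1-/- VLF and 1178 ± 284 in Scd1+/+ VLF livers (-2.50 ± 0.17, adjusted p = 1.26e-09). Socs2 (-1.05 ± 0.32, adjusted p = 0.0155) and Cish (-0.67 ± 0.19, adjusted p = 0.0105), feedback inhibitors of growth hormone signaling, and Bcl3, an NF-kB partner (-0.70 ± 0.17, adjusted p = 0.00295), were also lower. Il6 itself was at the floor on all 20 arrays. On chow, Osm was lower in Scd1-/- livers (-0.21 ± 0.06, adjusted p = 0.0486), a call lost without array 3, and Lifr was lower on the VLF diet in Scd1+/+ livers (-1.11 ± 0.17, adjusted p = 0.00228).

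The list written as other positive acute phase proteins of liver had 3 higher, 9 lower and 10 not called of 22 measured, with a median of -0.28. Whether each gene on it, such as Ambp, Hamp2 or Tfpi2, is induced in inflamed mouse liver was not checked. The counts therefore describe the list and not positive acute phase proteins as a class. Lrg1 (1.80 ± 0.26, adjusted p = 1.98e-05), the metalloreductase Steap4 (0.93 ± 0.20, adjusted p = 0.00137) and Ambp (0.13 ± 0.05, adjusted p = 0.0473) were higher. Hamp2, a hepcidin gene (-2.91 ± 0.42, adjusted p = 2.28e-05), Tfpi2, a protease inhibitor (-1.43 ± 0.10, adjusted p = 2.26e-09), the mannose-binding lectin Mbl1 (-1.35 ± 0.10, adjusted p = 7.46e-09) and the complement component C9 (-1.22 ± 0.16, adjusted p = 8e-06) were lower. On chow, Slc39a14, a zinc and iron importer (0.55 ± 0.14, adjusted p = 0.0476), and Ifitm3 (0.19 ± 0.04, adjusted p = 0.0388) were higher in Scd1-/- livers, and neither call held without array 3. Between the diets in Scd1+/+ livers, C9 (-0.71 ± 0.16, adjusted p = 0.0403) and Mbl1 (-0.45 ± 0.10, adjusted p = 0.0394) were lower.

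Negative acute phase proteins, plasma proteins whose synthesis normally drops in inflammation, had 0 higher, 10 lower and 4 not called of 14 measured (limma; 0 higher and 10 lower at an unadjusted p under 0.05), with a median of -0.45. Serpina6, the corticosteroid carrier, averaged 215 ± 109.6 in Scd1-/- VLF and 5257 ± 926 in Scd1+/+ VLF livers (-4.76 ± 0.27, adjusted p = 2.01e-10). Pon1, paraoxonase (-2.19 ± 0.12, adjusted p = 1.25e-10), Afm, afamin (-1.36 ± 0.11, adjusted p = 2.99e-08), and Proc, the anticoagulant protein C (-0.87 ± 0.07, adjusted p = 1.53e-08), were lower as well. Albumin Alb (0.00 ± 0.02, adjusted p = 1), transthyretin Ttr (-0.03 ± 0.04, adjusted p = 0.74), Apoa1 (0.07 ± 0.04, adjusted p = 0.131) and Ahsg (0.09 ± 0.05, adjusted p = 0.242), all near the top of the intensity range, were not called. Between the diets in Scd1+/+ livers, Fetub was lower (-0.81 ± 0.13, adjusted p = 0.0042).

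Hepatocyte transcription factors that bind acute phase genes had 4 higher, 6 lower and 5 not called of 15 measured, with a median of -0.31. The shares over all genes were 19.2% higher and 23.0% lower. The immediate early factors Atf3 (3.64 ± 0.14, adjusted p = 1.04e-12), Fos (2.86 ± 0.31, adjusted p = 6.73e-07), Jun (2.19 ± 0.20, adjusted p = 6.03e-08) and Fosl1 (1.08 ± 0.15, adjusted p = 1.52e-05) were higher. Cebpa, which maintains hepatocyte genes, averaged 665 ± 87.8 in Scd1-/- VLF and 2688 ± 216 in Scd1+/+ VLF livers (-2.02 ± 0.13, adjusted p = 1.1e-09). Nr3c1, the glucocorticoid receptor (-0.85 ± 0.11, adjusted p = 4.14e-06), Nr5a2 (-0.78 ± 0.08, adjusted p = 2.84e-07) and Foxa2 (-0.78 ± 0.17, adjusted p = 0.00112) were also lower. On chow and between the diets in Scd1+/+ livers, limma called 0 of the 15, with 7 and 2 at an unadjusted p under 0.05.

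For the diet in Scd1-/- livers and for the interaction, which share the Scd1-/- VLF arrays with the genotype comparison, the lists were counted in the same way. Over all genes, 17.1% were called higher and 17.7% lower between the diets, and 12.1% each way for the interaction. IL-1, TNF and toll-like receptor signaling had 13 higher and 4 lower between the diets and 12 higher and 3 lower for the interaction; the IL-6 family had 5 and 4, and 4 and 2. Without array 3 the first list had 12 and 4, and 13 and 3, and the IL-6 family 5 and 4, and 3 and 2. The list written as other positive acute phase proteins had 0 higher and 13 lower between the diets and 0 higher and 10 lower for the interaction. At an unadjusted limma p under 0.05 there were 2 and 1 higher. Without array 3 the called counts were 2 and 12, and 2 and 10. Negative acute phase proteins had 1 higher and 10 lower, and 0 higher and 9 lower (1 higher at an unadjusted p under 0.05); hepatocyte factors had 4 higher and 6 lower, and 4 higher and 5 lower. Without array 3 the negative acute phase proteins had 0 higher and 10 lower in both, and the hepatocyte factors had the same counts as with it. Between the diets the largest called changes in the cytokine lists were 4.86 ± 0.30 (adjusted p = 6.66e-10) for Cd14, -2.73 ± 0.13 (adjusted p = 1.25e-11) for Il1rap, -3.47 ± 0.17 (adjusted p = 1.84e-11) for Lifr and 0.80 ± 0.09 (adjusted p = 1.06e-06) for Il10rb. C9 at -2.01 ± 0.16 (adjusted p = 1.6e-08), Mbl1 at -1.89 ± 0.10 (adjusted p = 1.03e-10), Serpina6 at -4.61 ± 0.27 (adjusted p = 3.08e-10) and Pon1 at -2.25 ± 0.12 (adjusted p = 8.59e-11) were lower, and Atf3 at 3.72 ± 0.14 (adjusted p = 8.03e-13) and Fos at 2.18 ± 0.31 (adjusted p = 1.84e-05) were higher. The interaction was 4.95 for Cd14, -2.58 for Il1rap, -2.36 for Lifr, 0.86 for Junb, -2.32 for Hamp2, -1.44 for Mbl1, -4.82 for Serpina6, -2.14 for Pon1, 3.68 for Atf3 and 2.07 for Fos, all called.

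Markers of other liver cells were examined between genotypes on the VLF diet, where 19.2% of all genes were called higher and 23.0% lower. Of 12 macrophage and Kupffer cell markers, 11 were higher in Scd1-/- VLF livers than in Scd1+/+ VLF livers and 0 lower, and their summed level spanned 11686 to 19722 in Scd1-/- VLF, 6857 to 9952 in Scd1-/- chow, 5622 to 6717 in Scd1+/+ VLF and 6939 to 7411 in Scd1+/+ chow livers. Of 12 neutrophil markers, 4 were higher and 1 lower, with sums of 1380 to 5733, 708 to 1559, 624 to 769.4 and 688.0 to 814.1 in the same group order. S100a8, at 405 to 2951 in Scd1-/- VLF livers, and S100a9, at 252 to 1558, made up much of these sums, while 7 of the 12 were not called and the median log2 change was 0.28. Stellate cell markers had 5 of 8 higher and 1 lower, and sums of 5034 to 6413, 2884 to 3457, 2734 to 3610.1 and 3072 to 3698. Of 8 endothelial markers 1 was higher and 4 lower, of 6 biliary markers 2 were higher and 0 lower, of 6 lymphocyte markers 0 were higher and 2 lower, and of 3 adipocyte markers 1 was higher and 1 lower. The hepatocyte markers had 0 of 8 higher and 2 lower (limma; 1 higher at an unadjusted p under 0.05, and for the other counts of 0 in these lists there was none). Several hepatocyte markers lay at the top of the normalized range, such as Alb with 24438 and an SD of 0 in both VLF groups, where quantile normalization fixes the level. The adipocyte marker Adipoq and the biliary marker Cftr were at the floor on all arrays, and the part of these cells in the levels of Saa3, Lcn2, Il1r1 and the other genes was not tested.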

How the data were processed

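Affymetrix Mouse 430 2.0 arrays of 20 livers gave 1 linear intensity value per probe set and array in the authors' deposited table. Per the submitters' processing notes the tools were MAS5 and RMA; the sources used here do not give their versions or which of them made the values. Each array of deposited intensity values was scaled to a common median of 34.5, and values under a floor of 16 were set to it. Then log2 was taken and arrays were quantile normalized, which assumes like distributions of intensity in all livers. The 64 control probe sets were left out after these steps. Levels are given as linear normalized intensity and changes as log2 differences. No slide or scan date was in the table, so that batches could not be examined. The labels do not say whether livers came from separate litters or cages. The limma p-values set each change against the spread between these livers, estimated over all 4 groups together.

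Of 45037 probe sets, those above the floor on at least 1 array were fitted together with limma 3.58.1 in R 4.3.3 over the 4 groups. Benjamini-Hochberg adjustment was over all 45037, with a call at an adjusted p under 0.05. The 9083 at the floor on all arrays were not fitted, stayed in the adjustment and could not be called. The probe table, of 2016, named 1 gene for 34945 probe sets, several for 932 and none for 9160, and each gene was read from its brightest probe set. Members and lists were chosen with earlier results of these data known. Every-array values are given for the 14 genes with the largest changes between genotypes on the VLF diet and for genes called in the other genotype comparison or in wild-type livers; from each pathway list up to 4 called genes a direction are named for the VLF diet and up to 2 for each other comparison. Ligands and major plasma proteins that were not called were named after their values were seen. Alternatives were other normalization, centring, floors, filters, probe set choices, fits, array weights, a replicate block and leaving out each array. Leaving out Scd1-/- chow array 3 for the pathway lists and for the spread between livers was added after seeing the data.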

Additional observations from a re-analysis of the deposited data

Results flagged for a closer look

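Single livers lay far from the other 4 of their group for 20 of 128 combinations of gene and group. Chance alone would flag about 1 in 20 (6.4 of 128) if the combinations were independent. They are not, because the genes were read on the same arrays, and 13 of the 20 were Scd1-/- chow array 3 as the highest. By the same rule that array was the highest outlier of its group for 2.31% of 14403 genes above the floor on all arrays. Its values were 7721.6 for Saa2, 11028.8 for Saa1, 5659.2 for Saa4, 6575.0 for Lcn2, 11861.3 for Orm1, 6593.3 for Orm2, 656.9 for Orm3, 17468.5 for Hp, 16281.8 for Hpx, 9962.5 for Itih3, 15073.1 for Itih4, 4289.2 for Serpina3n and 285.0 for Socs3. The other 7 were Orm1 at 9440.1 and Orm2 at 3222.4, highest in Scd1-/- VLF replicate 1; Apcs at 3883.0, lowest in Scd1-/- VLF replicate 2; Hp at 5612.1, lowest in Scd1+/+ VLF replicate 1; and, among Scd1+/+ chow livers, Il1rn at 108.4 in replicate 2, Itih3 at 4601.1 in replicate 4 and Cebpb at 716.1 in replicate 5, each the lowest.

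The diet change differed between the genotypes by limma's interaction for 16 genes, given as the log2 diet change in Scd1-/- minus that in Scd1+/+ livers. It was positive for Lcn2 (4.32), Mt2 (2.66), Mt1 (2.10), Socs3 (1.82), Saa3 (1.22), Hp (0.97), Cp (0.89) and Hpx (0.42). It was negative for Saa4 (-1.89), Itih1 (-1.46), Crp (-1.42), Itih4 (-1.02), Il6ra (-0.86), Fgg (-0.36), Fgb (-0.28) and Fga (-0.23); Fgb and Fga turned sign when arrays were centred on the hybridization controls.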

How the results depend on the processing

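Between genotypes on the VLF diet, 18 of the 24 called genes were called under every alternative tried and 22 kept their sign. The counts were 9 called throughout of 14 between the diets in Scd1-/- livers, 11 of 16 for the interaction, 0 of 2 between genotypes on chow and 0 of 1 between the diets in Scd1+/+ livers. Over the 32 genes, 5 comparisons and all settings, 4533 values kept their sign and their side of the threshold, 128 uncalled values changed sign, 110 lost a call, 128 gained one and 9 reversed.

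Centred on the hybridization controls, 4 genes were lower between genotypes on the VLF diet, 16 higher and 5 lower between the diets in Scd1-/- livers, 2 lower between the diets in Scd1+/+ livers and 4 lower for the interaction. Over all genes, that centring called 5012 higher and 981 lower between genotypes on the VLF diet, against 3490 and 4176, and median scaling alone called 4159 and 3110; on chow, median scaling called 1261 and 234, against 224 and 312. The hybridization centring reversed Fga (0.06, 0.11 and 0.15) and Fgb (0.02, 0.07 and 0.04) between genotypes on the VLF diet, between the diets in Scd1-/- livers and for the interaction, and Il6st between those diets (0.38). Il1rn reversed there to 0.26 without probe sets shared by transcripts, and Saa2, at -0.31 to 0.99 over single arrays left out, to 0.99 without Scd1-/- chow replicate 3. The cause was not tested, except that for Saa2 a single array's value made the difference.

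Between genotypes on chow, the number called higher was 4 with a trended robust fit, 5 with a floor of 1, 1 with a floor of 32, 4 with all probe sets averaged, 7 with median scaling, 5 when dim probe sets were dropped, 0 when the other groups were dropped and 1 without probe sets shared by transcripts. Between the diets in Scd1+/+ livers, the number called lower was 6 with array weights, 3 with a trended robust fit, 3 with a floor of 1, 0 with a floor of 32, 3 with all probe sets averaged, 0 with median scaling, 4 when dim probe sets were dropped and 0 without probe sets shared by transcripts. Array weights gave 10 higher between the diets in Scd1-/- livers. Without probe sets shared by transcripts, Saa2, Saa3, Lcn2 and Itih4 could not be fitted.

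Leaving out each array in turn gave 15 to 20 higher and 6 to 7 lower between genotypes on the VLF diet, 5 to 16 and 8 to 8 between the diets in Scd1-/- livers, 0 to 4 and 0 to 0 between genotypes on chow, 0 to 0 and 0 to 7 between the diets in Scd1+/+ livers, and 8 to 14 and 7 to 8 for the interaction. Scd1-/- chow replicate 3 gave the counts of 16, 14 and 7. Between genotypes on chow, the count was 4 without Scd1-/- chow replicate 2, 0 without Scd1-/- chow replicate 3 or 4 or Scd1+/+ chow replicate 1 or 4, and 1 without Scd1-/- VLF replicate 1, 3, 4 or 5, Scd1-/- chow replicate 1, Scd1+/+ VLF replicate 1 or 5, or Scd1+/+ chow replicate 2, 3 or 5. Between the diets in Scd1+/+ livers, it was 2 without Scd1-/- VLF replicate 1 or Scd1+/+ VLF replicate 5, and 0 without Scd1-/- VLF replicate 4, Scd1-/- chow replicate 1, 4 or 5, Scd1+/+ VLF replicate 1 or 4, or any Scd1+/+ chow replicate.

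Samples of different groups share replicate numbers, and the labels do not say whether same-numbered samples were paired. Over 30 pairs of same-numbered arrays the correlation of deviations ran from -0.261 to 0.273, with 6 above 0.1 and 5 arrays nearest to their own number. Such values cannot exclude a pairing. With the replicate number as a block, 18 were higher and 7 lower between genotypes on the VLF diet, 1 higher between genotypes on chow, 2 lower between the diets in Scd1+/+ livers, 6 higher and 8 lower between the diets in Scd1-/- livers, and 8 higher and 7 lower for the interaction.

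None of the brightest probe sets of the 32 genes was at the floor on any array; between genotypes on the VLF diet, 19 were higher and 7 lower with a floor of 1, and 16 higher and 7 lower with a floor of 32.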
